A study of Mus musculus with 198 samples.

Results

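The 7 genes described here encode proteins of the acute phase response: the serum amyloid A genes Saa1, Saa2 and Saa3, haptoglobin (Hp), hemopexin (Hpx) and the orosomucoid genes Orm1 and Orm2. They were chosen by gene name. Each name matched 1 of the 56332 features of the count table, and all 7 were followed in all 9 tissues of the study. RNA was sequenced from lung, liver, kidney, heart, spleen, bone marrow, skin, gonadal fat and subscapular fat, the last being subcutaneous, of 22 C57BL/6 mice, with 1 library per tissue and mouse. The control group, which the labels call only "control", held 12 mice, 6 female and 6 male. The aPAPPA group held 10 mice, 5 of each sex, which received an antibody against PAPP-A, a secreted protease that cleaves insulin-like growth factor binding proteins. Treatment lasted 17 weeks in both groups, food and water were freely available, and every mouse gave all 9 tissues. The sources used here do not give ages. The females carry the numbers 3 to 36 and the males 37 to 71, so sex cannot be told apart from whatever else follows the numbering.

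Acute phase proteins are plasma proteins made mainly by hepatocytes, whose output rises when interleukin-6, interleukin-1 and tumour necrosis factor reach the liver and activate STAT3, NF-kB and C/EBP factors. Saa1 and Saa2 encode the serum amyloid A proteins that travel on high-density lipoprotein. Saa3 is made mainly outside the liver, by adipose tissue and macrophages. Haptoglobin binds free hemoglobin and hemopexin binds free heme, and both complexes are taken up by receptors for breakdown. The orosomucoids, also called alpha-1-acid glycoproteins, bind drugs and lipids and modulate immune cells. Adipocytes and maturing neutrophils are known further sources of haptoglobin.

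On mm10, Saa3 (7:46711998-46715700, minus strand), Saa1 (7:46740497-46742980, minus strand) and Saa2 (7:46751790-46754313, plus strand) lie close together on chromosome 7, with the start of Saa4 between Saa3 and Saa1, and Saa1 and Saa2 point away from each other. Hpx is on the same chromosome at 7:105591613-105600137 (minus strand), and Hp is at 8:109575128-109579172 (minus strand). Orm1 (4:63344560-63348163) and Orm2 (4:63362449-63365878) lie close together on the plus strand of chromosome 4, with the start of Orm3 between them. Close copies matter for the counts. The coding sequences of Saa1 and Saa2 differed at 18 of 366 bases, an identity of 95.1%, and 22.8% of the 31-base words of the Saa1 transcript also occurred in Saa2. Orm1 and Orm2 differed at 63 of 621 coding bases (89.9% identity), and 27.5% of the 31-base words of each occurred in the other. Orm3, which is no member, was 88.3% identical to Orm2 and 86.4% to Orm1, and 9.4% of the 31-base words of Orm2 occurred in it. Saa3 was farther away, at 79.1% identity to Saa1 over 358 aligned bases. The stretches of 60 coding bases below, from the GENCODE vM21 transcripts, were picked as those with the most differences within each pair. They are shown because reads can be given to 1 gene of a pair only at bases that differ, here or elsewhere in the transcripts. Capitals mark the bases that differ within each pair, 7 for Saa1 and Saa2 (coding bases 90 to 149, which cross an exon boundary) and 17 for Orm1 and Orm2 (coding bases 138 to 197, inside 1 exon).
Saa1: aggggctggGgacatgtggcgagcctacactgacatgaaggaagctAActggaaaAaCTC
Saa2: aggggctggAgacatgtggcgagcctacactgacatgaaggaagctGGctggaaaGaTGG
Orm1: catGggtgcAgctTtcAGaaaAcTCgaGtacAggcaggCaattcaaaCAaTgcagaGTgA
Orm2: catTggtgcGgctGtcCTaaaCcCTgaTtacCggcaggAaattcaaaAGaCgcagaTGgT
How reads shared by a pair were divided is set by the authors' quantification, so the split between Saa1 and Saa2 and among Orm1, Orm2 and Orm3 is uncertain.

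Upstream sequence is shown for the 5 members that the RefSeq promoter table (GRCm38.p6) holds, because 6 of the 7 members differed between the sexes in the same direction in liver. Each line gives the 200 bases before the annotated start, and capitals mark matches to the motifs searched. The stretches are 7:46742981-46743180 for Saa1, 7:46751590-46751789 for Saa2, 7:46715701-46715900 for Saa3, 7:105600138-105600337 for Hpx and 4:63362249-63362448 for Orm2, each written along its gene's strand.
Saa1: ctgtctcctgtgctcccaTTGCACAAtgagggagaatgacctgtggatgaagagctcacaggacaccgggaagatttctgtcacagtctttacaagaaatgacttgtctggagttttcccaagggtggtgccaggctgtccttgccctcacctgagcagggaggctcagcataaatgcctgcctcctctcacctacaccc
Saa2: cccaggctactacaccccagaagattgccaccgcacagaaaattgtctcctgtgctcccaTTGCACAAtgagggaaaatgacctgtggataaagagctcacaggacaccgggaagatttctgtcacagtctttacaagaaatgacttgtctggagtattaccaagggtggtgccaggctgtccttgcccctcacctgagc
Saa3: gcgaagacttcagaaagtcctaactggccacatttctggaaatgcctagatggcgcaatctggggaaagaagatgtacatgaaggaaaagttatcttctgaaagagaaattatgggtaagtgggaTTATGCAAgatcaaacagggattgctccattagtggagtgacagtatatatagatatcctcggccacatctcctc
Hpx: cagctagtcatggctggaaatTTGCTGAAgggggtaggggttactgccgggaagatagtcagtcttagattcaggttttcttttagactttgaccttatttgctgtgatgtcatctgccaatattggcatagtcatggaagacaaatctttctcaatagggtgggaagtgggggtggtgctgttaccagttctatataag
Orm2: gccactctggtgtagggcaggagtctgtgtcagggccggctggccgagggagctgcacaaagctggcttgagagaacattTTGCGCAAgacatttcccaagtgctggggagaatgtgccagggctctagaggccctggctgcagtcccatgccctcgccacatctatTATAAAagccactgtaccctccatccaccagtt
A C/EBP word, TTGCNNAA on either strand, stood in 5 of these 5 stretches, at 182 to 113 bases before the start in Saa1, Saa2, Hpx and Orm2 and at 75 to 68 bases before it in Saa3. The same word occurred in 7.47% of all 32851 promoter stretches of that length. A TATA word (TATAAA) was found in Orm2 alone and in 9.96% of all promoters. No match was found to a STAT word (TTCNNNGAA, 5.49% of promoters) or an NF-kB word (GGG and TTCC around any 3 bases, 3.91%) on either strand. A match is a run of letters and not a measured binding site. The Saa1 and Saa2 stretches were 97.5% identical over 157 aligned bases, which carried the same C/EBP word, TTGCACAA. Hp and Orm1 have no entry in the table.

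The libraries held 4138419 to 19517950 counts, with a median of 8950258. Between 47.4% and 99.5% of them fell on 9 abundant features, among them Lars2 and ribosomal RNA, and 33377 to 4694597 counts were left for other genes. A level is therefore given here in CPM (counts scaled to a common depth), taken over the counts outside those 9 features. Tissue identity was in doubt for 6 libraries, whose expected marker genes were low for their label: heart of control mouse 22 and aPAPPA mouse 56, lung of control mouse 68, skin of aPAPPA mouse 36, and both fats of aPAPPA mouse 58. The tests of arm and of sex and the correlations in these tissues were recomputed without them. Each mouse was 1 replicate.

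Of the 7 genes, 5 had their highest control level in liver and Saa3 had its highest in gonadal fat. Hp was high in both, in an order that turned with the scale. Values are the lowest, median and highest of the 12 control mice.

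**Figure D1:**
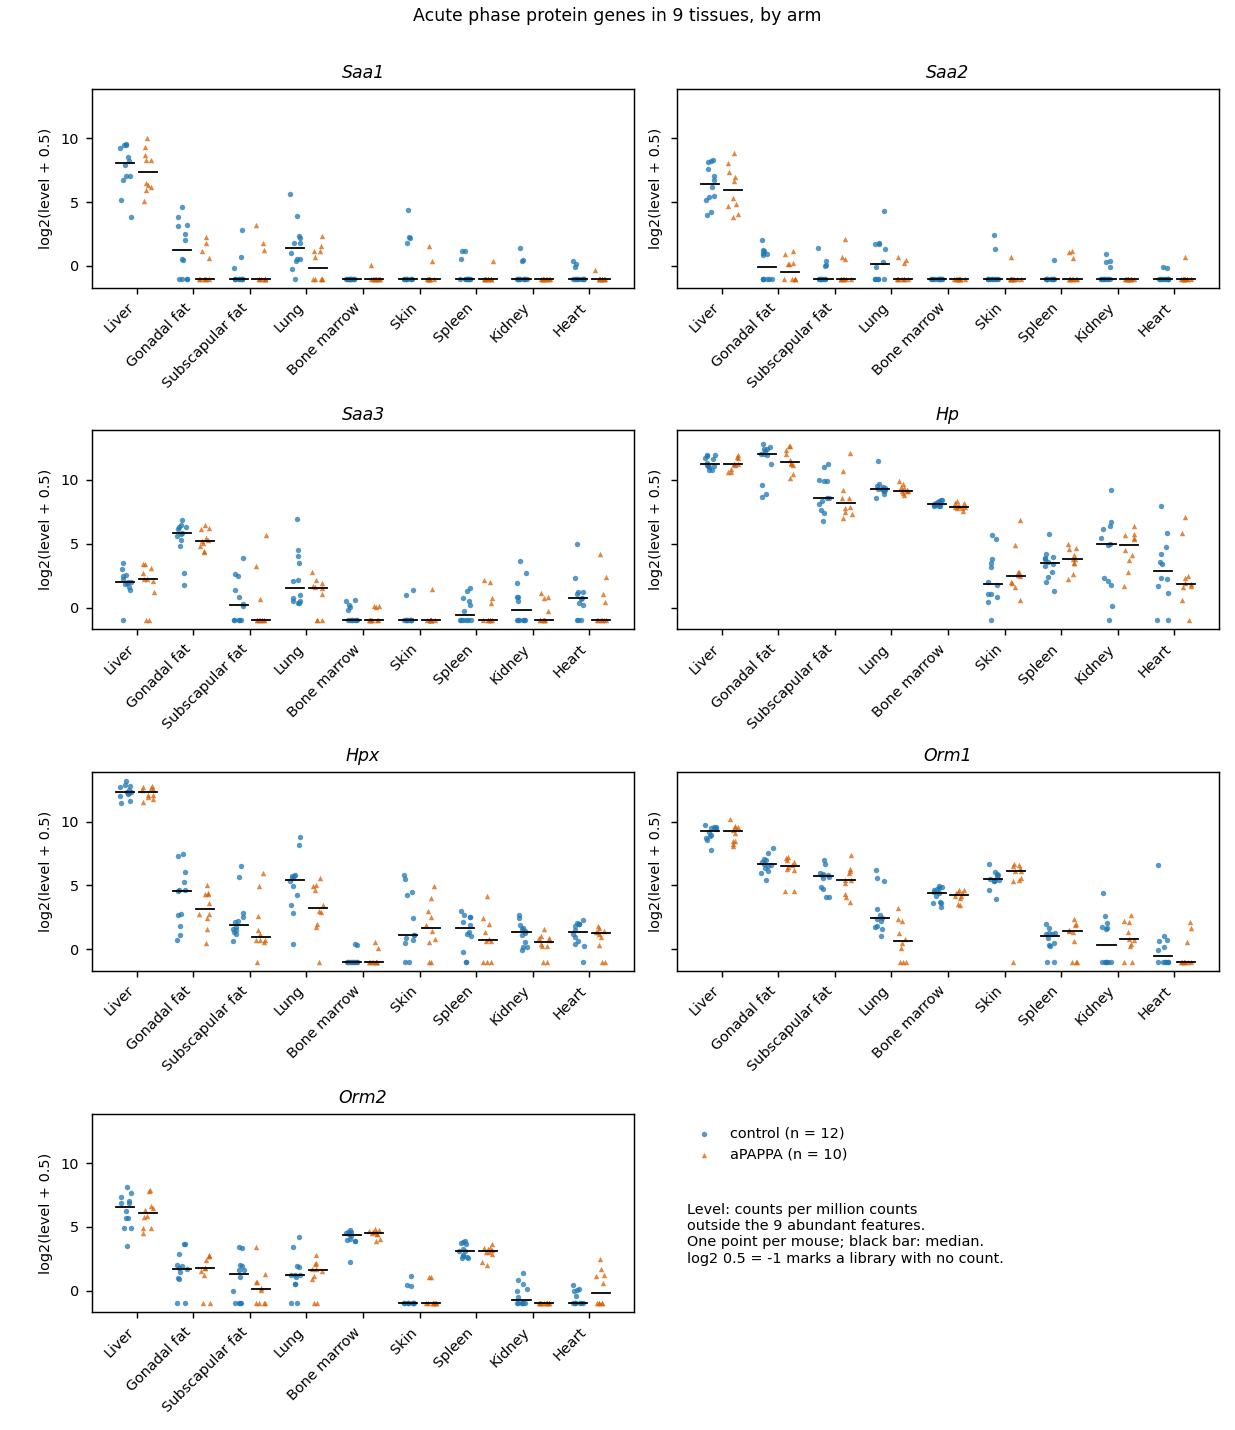
Level of each acute phase gene in 9 tissues, as log2(level + 0.5), where the level is in CPM outside the 9 abundant features. Circles are the 12 control mice, triangles the 10 aPAPPA mice and bars the medians. Liver stood highest for Saa1, Saa2, Hpx, Orm1 and Orm2, Hp was high in gonadal fat and liver alike, Saa3 was highest in gonadal fat, and the arms overlapped in every panel.

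In liver the Saa1 level was 13.9, 274 and 771, and Saa2 followed at 15.5, 88.2 and 321. Both ranges were wide for 1 group, with the low values in females and the high ones in males. Outside liver both genes were near the limit of detection. Lung came next, at a Saa1 level of 0, 2.25 and 48.9 and a Saa2 level of 0, 0.603 and 19.0. In bone marrow no control library had a count for either gene. On the log2(level + 0.5) scale, which understates differences of low levels, liver lay 6.12 above lung for Saa1 and 5.87 above lung for Saa2 (two-sided permutation test with 100000 resamples, p = 3e-05 and Benjamini-Hochberg adjusted p = 0.00028 for both). That family held 56 comparisons, each of a tissue with the next one down in a gene's order, and 14 had an adjusted p below 0.05. Below lung, the order of tissues for Saa1 and Saa2 did not hold beyond the spread between mice in any of the neighbouring pairs.

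Saa3 had another order. Its level in gonadal fat was 2.86, 56.1 and 113, in 12 of 12 control mice above that of their own liver, where it was 0, 3.57 and 10.6. The paired difference, liver minus gonadal fat, was -3.37 ± 0.98 (SD, log2 scale), and -2.15 when levels were scaled by TMM factors over all libraries. Gonadal fat also lay 3.10 above lung (permutation test, adjusted p = 0.00429). The lung values ran from 0.794 through 2.58 to 124, and the highest came from control mouse 68, whose library held almost no lung epithelial markers and an adipocyte marker sum of 11120 against a median of 203 in control lungs. In subscapular fat, the other fat depot, Saa3 stayed low, at 0, 0.658 and 14.1.

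Hp was the member most widely present, with counts in at least 10 of 12 control libraries of every tissue. Its level was 394.9, 4259 and 7346 in gonadal fat and 1727, 2476 and 4069 in liver. The means on the log2 scale differed by 0.05 (permutation test, adjusted p = 0.99), and the order turned with the scaling. More Hp in liver was found in 3 of 12 mice, but in 8 of 12 after TMM scaling, when the mean difference was 0.62 toward liver. Lung followed at 389.7, 640.1 and 2893, with liver 1.93 above it (adjusted p = 0.000187, from the smallest p the resamples can give), and the highest lung value was again mouse 68. Subscapular fat (107, 382.6 and 2462) and bone marrow (249.9, 272 and 339) came next, and neither could be told from its neighbour above. The marrow values were the tightest of any tissue, with a SD of 0.17 on the log2 scale. Bone marrow stood 4.06 above kidney (adjusted p = 0.00028), where Hp ran from 0 through 30.6 to 599.9. In heart it ran from 0 through 7.21 to 251, and the highest heart was control mouse 22, a library in which adipocyte markers summed to 10370 against a median of 407 in control hearts.

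Hpx, the heme carrier, was also mainly in liver. Its level there was 2865, 5139 and 9263, which lay 7.28 above lung on the log2 scale (permutation test, adjusted p = 0.000187). In lung it was 0.794, 43.1 and 439, in gonadal fat 1.12, 23.6 and 179.5, and in bone marrow 10 of 12 control libraries had no Hpx count. The spread among mice in lung and gonadal fat, with SDs of 2.25 and 2.28 on the log2 scale, was wide beside that in liver (0.50).

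The orosomucoid pair shared liver as the main site but not the sites that followed. Orm1 was 215, 632 and 855 in liver, then 42.1, 99.2 and 245 in gonadal fat, a difference of 2.43 (permutation test, adjusted p = 0.000187). Subscapular fat (16.2, 52.8 and 127) and skin (15.0, 43.5 and 102) were next and did not differ from each other beyond their spread. Orm2 was 10.8, 95.4 and 276 in liver, then 4.30, 20.2 and 26.5 in bone marrow, a difference of 2.09 (adjusted p = 0.000747), then 5.29, 8.01 and 14.4 in spleen. In skin, where Orm1 was found in all 12 control libraries, Orm2 had counts in 3 of 12. Gonadal fat gave Orm2 a level of 0, 2.83 and 12.2.

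Per kilobase of coding transcript, the scale on which genes can be compared, the mean level in control liver was 3683 for Hpx, 2055 for Hp, 754 for Orm1, 566 for Saa1, 199 for Saa2, 135 for Orm2 and 7.63 for Saa3. In control gonadal fat it was 2852 for Hp, 145 for Orm1 and 100.1 for Saa3. In control bone marrow Orm1 and Orm2 were level with each other, at 26.1 and 24.0 per kilobase, while in liver Orm1 was the higher of the pair.

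The main question of the study was whether blocking PAPP-A changes gene expression in each tissue. For the acute phase genes no difference between the arms passed the test. The filter on low counts kept 21 of the 63 member and tissue pairs: all but Saa3 in liver, Saa3, Hp, Hpx and Orm1 in gonadal fat, Hp, Orm1 and Orm2 in bone marrow, Hp and Hpx in lung, Hp and Orm1 in subscapular fat, Hp in heart, kidney and spleen, and Orm1 in skin. In edgeR's quasi-likelihood test with sex as covariate, 0 of 21 had an adjusted p below 0.05, the smallest being 0.655, and 5 of 21 had an unadjusted p below 0.05. DESeq2 and limma-voom also called 0. Among all genes tested the share called was 0.00776% in bone marrow, 1 gene of 12891, and 0.0% in each of the other 8 tissues. The difference, aPAPPA minus control, was negative in 16 of the 21 pairs and positive in 5, with a median of -0.22 on the log2 scale. The 21 values come from the same mice and several from the same libraries, so the count of signs is a description. The test of a mean over all tissues took only genes that passed the filter in every tissue, and no member did.

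**Figure D2:**
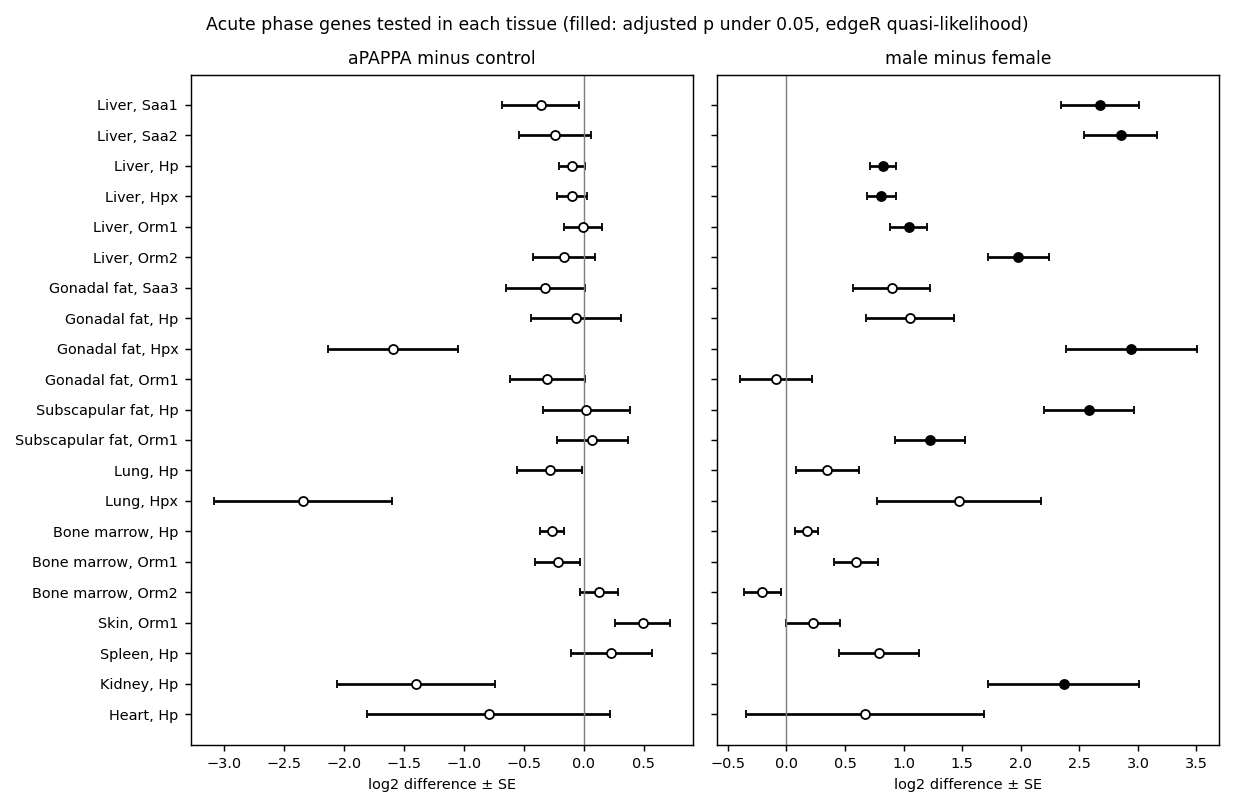
Log2 differences with standard errors for the 21 tested pairs of tissue and gene: aPAPPA minus control on the left and male minus female on the right. Filled points have an adjusted p below 0.05 in edgeR's quasi-likelihood test. No treatment difference is filled, while all 6 liver genes are filled for sex.

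In liver the arms overlapped almost wholly. Saa1 was 13.9, 274 and 771 (lowest, median and highest) in controls and 32.96, 199 and 1044 under aPAPPA. The log2 difference was -0.36 ± 0.32 (SE), with a 95% interval from -0.99 to 0.27 (edgeR, adjusted p = 1). Saa2 was 15.5, 88.2 and 321 in controls and 13.9, 69.1 and 459 under aPAPPA, a difference of -0.24 ± 0.30. In both arms the low values were females and the high values males.
Hp and Hpx varied less between mice, so their intervals were narrower. Hp was 1727, 2476 and 4069 in controls against 1551, 2412 and 3914, a difference of -0.10 ± 0.11 whose interval ran from -0.31 to 0.12, a fold between 0.808 and 1.08. Hpx was 2865, 5139 and 9263 against 2926, 5036 and 7217, a difference of -0.10 ± 0.13 and a fold between 0.787 and 1.11. For these 2 genes, and for Orm1 below, a change in the liver by a factor of 1.5 in either direction lies outside the interval.
Orm1 was 215, 632 and 855 against 265, 605.5 and 1155, a difference of -0.007 ± 0.158 and a fold between 0.803 and 1.23. Orm2 was 10.8, 95.4 and 276 against 22.0, 69.3 and 231, a difference of -0.16 ± 0.26 with an interval from -0.67 to 0.34. The adjusted p was 1 for all 6 genes.

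The 5 pairs with an unadjusted p below 0.05 lay in 5 tissues. Hpx in lung and in gonadal fat moved beside hepatocyte markers, and Hp in bone marrow moved beside neutrophil markers. The largest was Hpx in lung. Its level was 0.794, 43.1 and 439 in controls and 0, 8.98 and 48.0 under aPAPPA, a difference of -2.34 ± 0.74 (edgeR, p = 0.00443, adjusted p = 0.712). The 2 highest control lungs, mice 61 and 68, lay apart at 439 and 289.5, and without the library of mouse 68 the difference was -2.1. Hepatocyte markers moved the same way: all 8 tested of the list of 14 were lower under aPAPPA, with a median of -2.05. All 14 had counts in both arms, with sums of 46.6, 346 and 3028 in controls and 40.3, 84.0 and 489.5 under aPAPPA. The sum of 3028 came from the lung of control mouse 61, where the level of Alb (albumin) was 2468. In bulk tissue, the source of such RNA, the number of cells and the RNA per cell cannot be told apart.
Hpx in gonadal fat was 1.12, 23.6 and 179.5 in controls and 0.913, 8.93 and 32.2 under aPAPPA, a difference of -1.59 ± 0.55 (p = 0.00767, adjusted p = 0.979). All 3 tested hepatocyte markers were lower, with a median of -1.46, and their sum over 14 markers, all with counts, was 26.6, 172.8 and 1749 in controls and 25.6, 67.1 and 262.5 under aPAPPA. The part of these markers in either result was not tested.

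Hp in bone marrow was 249.9, 272 and 339 in controls and 190.2, 239.5 and 329 under aPAPPA, a difference of -0.26 ± 0.10 (edgeR, p = 0.0152, adjusted p = 0.655). Of the neutrophil markers 12 of 12 were lower, with a median of -0.28, and all had counts, with sums of 24710, 35720 and 60160 in controls and 17980, 26250 and 40540 under aPAPPA. The part of the neutrophil content was not tested. In the same marrow Orm1 differed by -0.22 ± 0.19 and Orm2 by 0.13 ± 0.16.
Hp in kidney was 0, 30.6 and 599.9 in controls and 2.76, 31.6 and 84.9 under aPAPPA, so the medians were level. Its difference of -1.40 ± 0.66 (p = 0.0439, adjusted p = 1) rested on control mouse 37, and was -0.53 without that library. Orm1 in skin had the only positive difference among the 5, 0.49 ± 0.23 (p = 0.0415, adjusted p = 1), from 15.0, 43.5 and 102 in controls to 0, 70.5 and 99.9 under aPAPPA. The 0 came from mouse 36, whose skin library had only 33377 usable counts, where 3 counts already make a level of 89.9. Without it the difference was 0.51.

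The other tested pairs gave differences between -0.79 (Hp in heart, SE 1.01) and 0.23 (Hp in spleen, SE 0.34). In the fat depots, Saa3 in gonadal fat was 2.86, 56.1 and 113 in controls and 19.4, 36.7 and 86.5 under aPAPPA (-0.32 ± 0.33). Hp there was 394.9, 4259 and 7346 in controls and 1156, 2792 and 6594 under aPAPPA (-0.06 ± 0.38), a value whose sign turned under other settings. Orm1 differed by -0.30 ± 0.31 in gonadal fat and by 0.07 ± 0.30 in subscapular fat. The interaction of sex and treatment was called for 0 of 21 pairs, beside 0.00835% of all genes in spleen and 0.0% in each of the other 8 tissues. An unadjusted p below 0.05 was found for 3 pairs, all of them Hp: 0.41 in bone marrow, 4.70 in heart and -1.17 in lung (edgeR, adjusted p between 0.604 and 1). Over all genes such a p was found for 4.52% in bone marrow, 5.78% in heart and 7.83% in lung. The interaction was not refitted without the libraries in doubt. Among these are the heart and the lung with the most Hp, of control mice 22 and 68.

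The rest of the pathway also showed no difference between arms that passed the test. In 5 lists (24 further positive acute phase genes, 10 negative ones, 13 inducing cytokines and receptors, 15 signalling and transcription factors, and 11 genes of uptake and clearance), 381 gene and tissue pairs were tested. None was called by edgeR, and 47 had an unadjusted p below 0.05. That is a larger share than over all genes, where it ran from 2.37% in subscapular fat to 7.01% in bone marrow. The pairs share mice and libraries, so the share is a description. In liver, where 20 further positive acute phase genes were tested, the median difference was -0.007, beside 0.007 over all 8897 genes tested. The smallest p values there belonged to Crp (C-reactive protein), at 0.17 ± 0.07, and Serpina3k, at 0.44 ± 0.21. Among the 10 negative acute phase genes, whose output falls in inflammation, the median was -0.003, with Serpina6 (corticosteroid-binding globulin) at -0.33 ± 0.13 and Cyp7b1 at 0.46 ± 0.19. Of 7 tested cytokine and receptor genes, Il6ra, a subunit of the interleukin-6 receptor, differed by 0.39 ± 0.19 and Osmr by -0.53 ± 0.28. The haptoglobin-hemoglobin receptor Cd163 differed by 0.46 ± 0.21 and the hemopexin-heme receptor Lrp1 by 0.11 ± 0.12. Each of these has an adjusted p of 1 in edgeR. In lung all 6 tested negative acute phase genes were lower under aPAPPA, 5 with an unadjusted p below 0.05 in edgeR, with a median of -2.06. Of 16 further positive ones 14 were lower and 2 higher, 9 with such a p, with a median of -0.89. In gonadal fat all 5 negative ones were lower, 3 with such a p, with a median of -1.48. Of 15 further positive ones there 11 were lower and 4 higher, 3 with such a p, with a median of -0.13. These values lie beside the hepatocyte markers described above, whose part was not tested.

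The wide liver ranges within each arm went with sex. All 6 members tested in liver were higher in males in edgeR's quasi-likelihood test with treatment as covariate, where 12.8% of all 8897 tested genes were called higher in males. In each of the 6, every one of the 11 males lay above every one of the 11 females, which held for 1.29% of the genes tested.

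**Figure D3:**
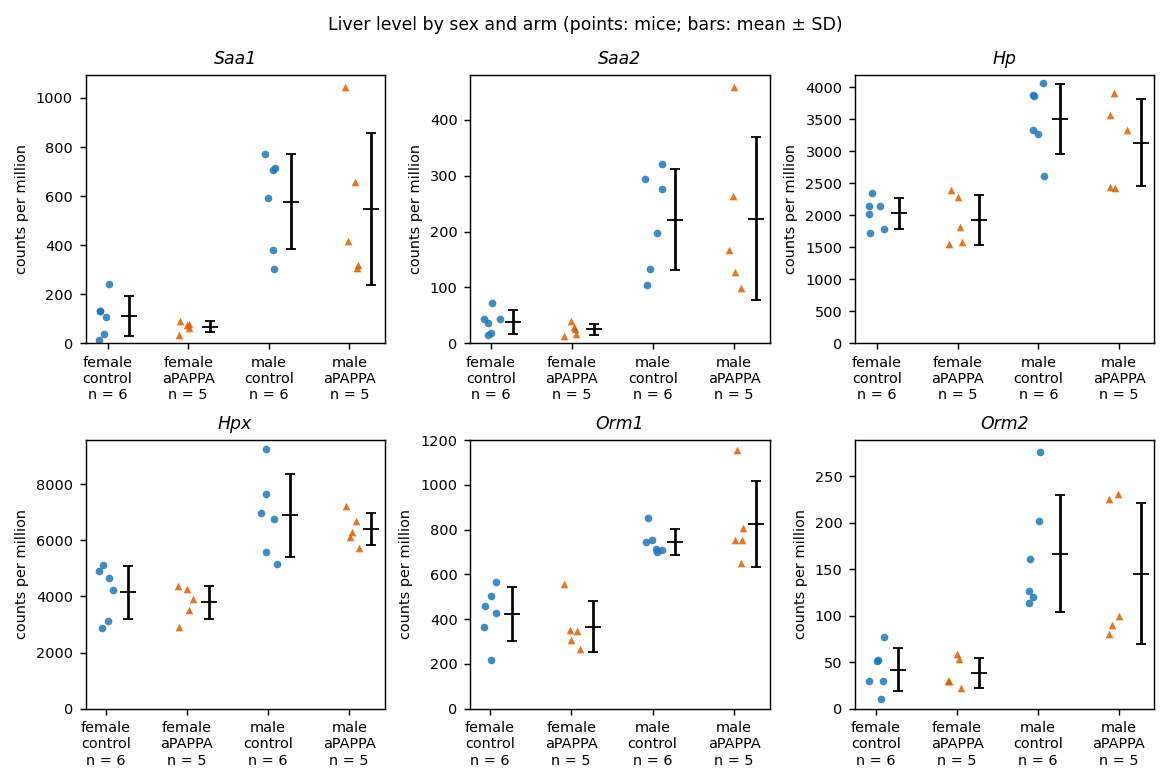
Liver level of the 6 tested genes, in CPM outside the abundant features, by sex and arm. Points are mice, and bars are the mean and SD of 6 control or 5 aPAPPA mice. In each panel the males of both arms lie above the females, while the arms overlap within each sex.

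Saa1 was 13.9, 79.3 and 243 (lowest, median and highest) in females and 304, 592 and 1044 in males. The log2 difference was 2.68 ± 0.34 (SE), a 6.4-fold higher level (adjusted p = 1.65e-06). Saa2 was 13.9, 29.2 and 72.5 in females and 98.6, 197 and 459 in males, 2.85 ± 0.31 or 7.22-fold higher (adjusted p = 1.79e-07). The highest female stood below the lowest male for both genes.
Orm2 followed, at 10.8, 30.1 and 76.7 in females and 80.2, 127 and 276 in males, a difference of 1.98 ± 0.26 or 3.94-fold (adjusted p = 3.71e-06). Orm1 was 215, 367 and 565 in females and 652, 754 and 1155 in males, a difference of 1.04 ± 0.16 or 2.06-fold (adjusted p = 2.99e-05). The 95% intervals of the pair, 1.47 to 2.49 for Orm2 and 0.73 to 1.36 for Orm1, did not overlap.
The hemoglobin and heme carriers differed least. Hp was 1551, 2023 and 2400 in females and 2423, 3326 and 4069 in males (0.83 ± 0.11, 1.77-fold, adjusted p = 3.26e-06). Hpx was 2865, 4213 and 5124 in females and 5154, 6698 and 9263 in males (0.81 ± 0.13, 1.75-fold, adjusted p = 3.54e-05). For Hp and Hpx the gap between the sexes was narrow, with the highest female just below the lowest male.
Saa3 did not pass the low count filter in liver, where it was 0, 3.10 and 4.201 in females and 1.78, 5.86 and 10.6 in males. All 6 calls held when any 1 mouse was left out.

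Other features of the livers differed by sex as well. The 14 hepatocyte markers summed to 28880, 39620 and 45950 in females and 46740, 52390 and 54370 in males, which do not overlap either, and 6 of the 14 were called higher in males, with a median of 0.29. Relative to that sum in the same library, the members were higher in males by 2.42 for Saa1, 2.35 for Saa2, 1.58 for Orm2, 0.60 for Orm1, 0.33 for Hpx and 0.32 for Hp on the log2 scale. Since the sum itself differed by sex, these relative values are a description and do not measure hepatocyte content. On this relative scale the sexes remained apart for Saa1 and Saa2 and overlapped for the other 4. All 7 tested macrophage markers were lower in males, 3 of them called, and all 10 had counts, with sums of 322, 430 and 569 in females and 219.5, 321 and 458 in males. Usable counts were 301790 to 2187926 in female livers and 674476 to 2191487 in male livers. The part of depth and of cell composition was not tested.

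The other acute phase genes did not share one direction between the sexes in liver. Of 20 further positive acute phase genes tested, 6 were called higher in males and 2 lower, with a median of 0.07, beside -0.02 over all genes. Of all genes 15.6% were called lower in males. The genes named here were chosen after their values were seen. Higher in males were Serpina3k (1.51 ± 0.21), Lcn2 (lipocalin 2, 1.24 ± 0.29), Saa4 (a constitutive serum amyloid A, 0.77 ± 0.12), Serpina3n (0.67 ± 0.11), Itih4 (0.42 ± 0.12) and Itih3 (0.38 ± 0.10). Lower in males were Mt1 (metallothionein 1, -1.02 ± 0.35) and Hamp (hepcidin, -0.70 ± 0.22). Of 13 signalling and transcription factors, Cebpa was called higher in males (0.48 ± 0.10), and those called lower included Nfkbiz (-0.57 ± 0.16), Nfkb1 (-0.48 ± 0.14) and Rela (-0.41 ± 0.14). Among 7 cytokine and receptor genes, Il1rap, the accessory chain of the interleukin-1 receptor, was higher (0.60 ± 0.08), and Il6ra (-0.56 ± 0.19) and Tnfrsf1a (-0.27 ± 0.10) were lower. Negative acute phase genes went both ways, with Cyp7b1 at 3.37 ± 0.20, Apoa4 at 1.62 ± 0.32 and Ttr at 0.42 ± 0.12 in males and Serpina6 at -0.74 ± 0.13. The uptake and clearance genes gave 0 calls among 9 tested by edgeR, and 1 had an unadjusted p below 0.05.

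Outside liver, 4 of the 15 tested pairs were called higher in males and 0 lower. The share of all genes called higher in males was 12.9% in kidney, 9.58% in subscapular fat, 8.59% in gonadal fat, 2.07% in spleen, 0.388% in bone marrow, 0.202% in skin, 0.116% in heart and 0.0466% in lung. In subscapular fat Hp was 107, 203 and 385 in females and 234, 987 and 4338 in males. The difference was 2.59 ± 0.38, or 6-fold (edgeR, adjusted p = 0.000364), and 9 of 11 males lay above every female. Orm1 in the same depot was 12.6, 36.1 and 60.8 in females and 16.7, 62.9 and 167 in males (1.22 ± 0.30, adjusted p = 0.014). Adipocyte markers there did not share the direction: 7 of 11 were higher in males and 4 lower, with 2 called lower, beside 5.91% of all genes, and 0 called higher. Their sums were 3863, 12390 and 18200 in females and 2866, 9937 and 23160 in males. Within males, Hp and that sum had r = 0.93 and rho = 0.93 (permutation, adjusted p = 0.00011 and 0.00066), and 0.89 without the 2 farthest. Within females r was 0.56 and rho 0.42 (adjusted p = 0.15 and 0.335), and 0.42 without the 2 farthest. Other markers in this depot also differed. The mesothelial markers summed to 9.85, 122 and 509.7 in females and 1.27, 5.93 and 14.9 in males, and the keratinocyte markers to 2.06, 38.8 and 89.7 against 0.575, 3.44 and 8.24. Of these, 0 of 8 mesothelial and 0 of 6 keratinocyte markers passed the low count filter here, so none was tested. The cells that gave these counts were not identified. The erythroid markers were called higher in males for 4 of 5 tested. The part of the depot's composition in the difference in Hp and Orm1 was not tested. In gonadal fat neither of these 2 genes was called. Hp there was 394.9, 2378 and 5633 in females and 1415, 5339 and 7346 in males (1.06 ± 0.38, adjusted p = 0.0609), and Orm1 differed by -0.09 ± 0.31. Whether the sex difference itself differs between the depots was not tested. Saa3 in gonadal fat was 2.86, 37.8 and 77.9 in females and 27.8, 72.2 and 113 in males (0.90 ± 0.33, adjusted p = 0.0668). All 10 macrophage markers were higher in male gonadal fat, 8 of them called, with a median of 0.99 and sums of 1357, 3394 and 4885 in females and 2559, 5639 and 12460 in males. Within each sex, Saa3 and the macrophage sum had r = 0.45 in females and 0.47 in males (permutation, adjusted p = 0.238 and 0.21, rho = 0.19 and 0.45), and -0.23 and 0.04 without the 2 farthest mice. With the mesothelial sum Saa3 had r = 0.89 in females (adjusted p = 0.0055, rho = 0.75 with adjusted p = 0.0505), and 0.71 without the 2 farthest, against -0.29 in males (adjusted p = 0.481). All 8 mesothelial markers were lower in males, 2 of them called, beside 6.5% of all genes.

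The remaining calls moved beside markers of another tissue. Hpx in gonadal fat was 0.913, 5.03 and 24.4 in females and 6.10, 24.4 and 179.5 in males (2.94 ± 0.56, adjusted p = 0.00134). All 3 tested hepatocyte markers were called higher in males, with a median of 2.64, and the sum over 14 markers was 25.6, 39.5 and 262.5 in females and 38.3, 212.5 and 1749 in males. Hp in kidney was 0, 4.401 and 105 in females and 22.0, 51.8 and 599.9 in males (2.37 ± 0.65, adjusted p = 0.00761). All 7 tested adipocyte markers were higher in male kidneys, 3 of them called, and all 11 listed had counts, with sums of 108, 176 and 875 in females and 162, 376 and 1617 in males. Without control mouse 37, the kidney with the most Hp and the highest adipocyte sum, the difference was 1.46 and the adjusted p 0.0515. Without control mouse 3, the female with the most Hp, it was 3.74. In bone marrow Orm1 was 9.46 to 25.4 in females and 12.7 to 30.8 in males (0.59 ± 0.19, adjusted p = 0.138), where 12 of 12 neutrophil markers were higher in males, 3 of them called.

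**Figure D4:**
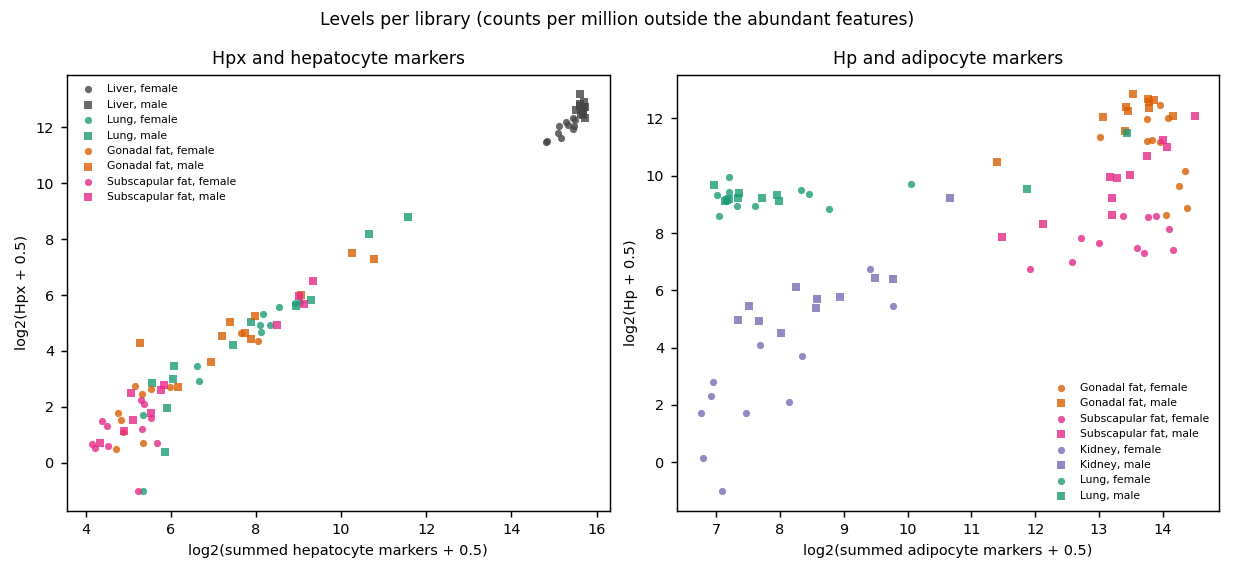
Each point is 1 library. Left: Hpx against the summed level of 14 hepatocyte markers in liver, lung and both fats. Right: Hp against the summed level of 11 adipocyte markers in both fats, kidney and lung. Axes are log2(level + 0.5), with levels in CPM as above, circles are females and squares males. Hpx is higher where the hepatocyte markers are higher in lung and gonadal fat (r = 0.94 and 0.93), while the female subscapular fats show little of this (r = 0.17), and Hp is higher in kidneys with higher adipocyte markers (r = 0.81).

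Across mice, Hpx in lung and gonadal fat followed the hepatocyte markers closely. In lung Pearson's r between the log2 values was 0.94 and Spearman's rho 0.97 over 22 mice (permutation tests, p = 1e-05, the smallest they can give, adjusted p = 5.5e-05 and 7.33e-05 over a second family of 22 relations). It was 0.94 within the 11 females and 0.95 within the 11 males, and 0.98 without the 2 mice farthest from the median. In gonadal fat r was 0.93 and rho 0.89, with 0.88 and 0.90 within the sexes and 0.91 without the 2 farthest mice (adjusted p = 5.5e-05 and 7.33e-05). In subscapular fat r was 0.98 in males (rho = 0.96, 0.97 without the 2 farthest) and 0.17 in females (rho = 0.41, r = 0.43 without the 2 farthest), whose marker sums spanned only 17.2 to 51.1, and the difference between the sexes was not tested. The ratio of sums over the 22 libraries differed between tissues. It was 118 Hpx counts per 1000 of the summed hepatocyte markers in liver, 129.99 in lung, 117.0 in gonadal fat, 103 in subscapular fat, 96.1 in skin and 89.8 in spleen. It was lower in heart, at 54.4 from 70 Hpx counts, and in bone marrow, at 35.1 from 4 Hpx counts. In kidney the ratio was 1.13, where several of the listed markers are genes the kidney itself expresses.
Hp followed the adipocyte markers in kidney, with r = 0.81 and rho = 0.83 (adjusted p = 5.5e-05 and 7.33e-05), 0.81 and 0.86 within the sexes, and 0.81 without the 2 farthest mice. In heart r was 0.72 and rho 0.60 (permutation, adjusted p = 0.00011 and 0.00851), and r was 0.63 without the libraries in doubt. In lung r was 0.70 but rho 0.30 (adjusted p = 0.0107 and 0.249), and r was 0.25 without the library in doubt. In skin r was 0.43 (adjusted p = 0.0659), and 0.12 without the 2 farthest mice. With the neutrophil markers, Hp in spleen had r = 0.19 (adjusted p = 0.455). In bone marrow Hp followed the neutrophil markers, with r = 0.65 and rho = 0.64 (adjusted p = 0.00262 and 0.00435), 0.78 and 0.71 within females and males, and 0.72 without the 2 farthest mice. Orm1 in the same marrow gave r = 0.69 and rho = 0.70 (adjusted p = 0.000687 and 0.00136), 0.31 within females and 0.83 within males, and 0.69 without the 2 farthest mice. Orm2 had the opposite sign, with r = -0.57 (adjusted p = 0.00999) and rho = -0.36 (adjusted p = 0.152), 0.05 within females and -0.68 within males (adjusted p = 0.0324), and -0.44 without the 2 farthest mice (adjusted p = 0.104). For Hp in gonadal fat the sexes gave opposite signs with the adipocyte markers. Pearson's r was -0.48 in females (permutation, adjusted p = 0.238, rho = -0.55) and 0.83 in males (adjusted p = 0.0324, rho = 0.53 with adjusted p = 0.202). The relation in males rested on 2 mice, since r was 0.17 without the 2 farthest. Over both sexes r was -0.14 (permutation, adjusted p = 0.561). Gonadal fat of aPAPPA mouse 58, a library in doubt, had an adipocyte sum of 2701. Without it the pooled r was -0.50 (adjusted p = 0.0308) and rho -0.41 (adjusted p = 0.106). With the macrophage markers in this fat, Hp had a pooled r of 0.59 and rho of 0.55 (permutation, adjusted p = 0.00694 and 0.0165). Within females r was 0.78 (adjusted p = 0.0216, rho = 0.61 with adjusted p = 0.126) and within males -0.53 (adjusted p = 0.182). The pooled r was 0.37 without the 2 farthest mice (adjusted p = 0.155) and 0.79 without the library in doubt (adjusted p = 0.000293).

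Within the liver the members were compared pair by pair over mice, in a first family of 75 relations. Since the sexes fall into separate clusters, r is given within each sex. Among the 21 pairs it ranged from -0.33 to 0.77 in the 11 females, with a median of 0.41 and no adjusted p below 0.05. In the 11 males it ranged from -0.07 to 0.96, with a median of 0.45. The 1 pair past the threshold was Saa1 and Saa2 in males, at r = 0.96 (permutation p = 1e-05, the smallest they can give, adjusted p = 0.00075) and rho = 0.91 (adjusted p = 0.0112), and r was again 0.96 without the 2 farthest males. In females the same pair had r = 0.68 (adjusted p = 0.315) and 0.41 without the 2 farthest, and the difference between the sexes was not tested. Part of this relation can come from reads that the 2 near-identical transcripts share, which was not tested. Orm1 and Orm2, the other close pair, had r = 0.51 in females and 0.45 in males.

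**Figure D5:**
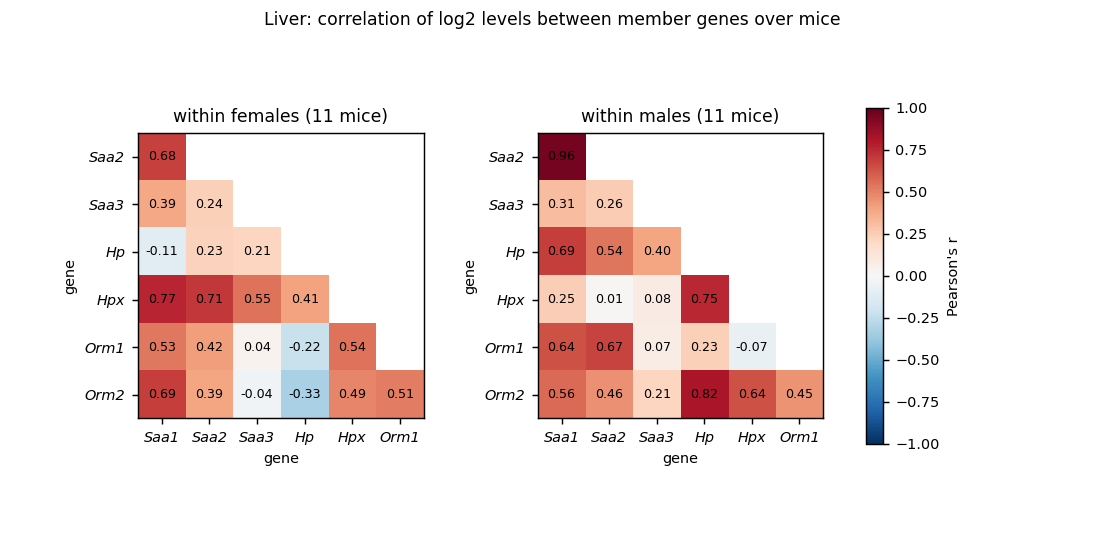
Pearson's r of log2(level + 0.5) between the 7 genes in liver, over 11 female mice (left) and 11 male mice (right). Colour runs from -1 (blue) to 1 (red). Saa1 and Saa2 reach 0.96 in males, and most other pairs lie between -0.3 and 0.8.

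No relation between liver and another tissue passed the test within a sex. Of 33 comparisons of a member in liver with the same member in another tissue, 0 had an adjusted p below 0.05 within females or within males, where r had medians of 0.14 and 0.07. Permutation tests of the pooled mice gave 15 of 33, which mix the difference between the sexes into r.

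For each member the genes with the most similar tissue profile were found by Pearson's r over 9 control tissue means. These points share libraries and sets of abundant genes, so r is a description. Saa1 was closest to Ces3a, Cyp2c29 and Cyp2c50 (each r = 0.996), Saa2 to Saa4 and Cyp2c38 (0.999) and Lect2 (0.998), and Hpx to Apoa1 (0.997), Serpina1c and Mug1 (both 0.994), all with their highest mean in liver. Saa3 was closest to Cpz (0.985), Tmem198b (0.918) and Stab1 (0.898), and Hp to Pid1 (0.966), Mmp19 (0.939) and Vnn3 (0.93). Orm1 and Orm2 had looser neighbours, Rhou (0.932), Atg101 (0.929) and Htatip2 (0.924) for the first and Cyp2r1 (0.969) and Soat2 (0.949) for the second. Over the 22 livers, with the mean of each sex and arm removed, the closest gene was Necab1 for Saa1 (r = 0.787), C9, a complement component, for Saa2 (0.674), Acadl for Hp (0.85), F5, coagulation factor V, for Hpx (0.789), Cpb2 for Orm1 (0.91) and Ptges3 for Orm2 (0.766). Each was the highest of 5794 genes compared.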

How the data were processed

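Per the labels' protocols, stranded total RNA libraries were prepared from whole tissues of 22 mice. The submitters' processing notes name FastQC 0.11.5, Salmon and mm10. The deposited table holds counts, all whole numbers, by feature and library. The annotation, the strand option and the way Salmon's estimates were made whole are not stated in those notes or labels. The members and gene lists were chosen with earlier results of these data known.

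Each tissue's counts were fitted with edgeR 4.0.16 under R 4.3.3, using TMM factors, filterByExpr and the quasi-likelihood F-test, with sex and treatment in the model. P-values were Benjamini-Hochberg adjusted over all genes of a tissue, with a threshold of 0.05. The standard error is the log2 difference over the root of F, and 95% intervals are 1.96 SE. Levels were compared as log2(level + 0.5). Single values and correlations used two-sided permutation tests with 100000 resamples (numpy 2.4.6, scipy 1.17.1). Tests were tried on simulated data. P-values weigh a difference or a correlation against the spread between mice. DESeq2 1.42.0, limma-voom (limma 3.58.1), RLE scaling, no filter, and fits without sex, without the abundant features or without the 6 libraries in doubt were alternatives, the last for sex chosen after seeing the data, as were the marker correlations and the levels relative to hepatocyte markers. Libraries in doubt were those whose own tissue markers had a mean log2 level over 2 under the median of that tissue, or with under 1000 genes at 10 counts. The rule for named genes took all members, up to 4 genes per list with the smallest treatment p, and the 3 genes most alike, of which some items are not reported here. Coding identity, from GENCODE vM21 transcripts, and motif matches were computed with biopython 1.88.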

Additional observations from a re-analysis of the deposited data

Results flagged for a closer look

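Within the 10 aPAPPA mice, the Orm1 level in skin of mouse 36 was 0.0 while the next lowest mouse was at 40.05. The gap, as a share of the whole range, was above Dixon's 95% critical value for 10 samples. Of 21 groups examined, all of aPAPPA mice, 1 had such a sample, and chance flags about 5% of groups. The control groups, with 12 mice each, were larger than the rule covers and were not examined. That library had 33377 usable counts and keratinocyte markers far below those of the other skins. Without it, the difference in Orm1 between the arms was 0.51 (log2, edgeR, adjusted p = 1).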

How the results depend on the processing

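No difference between the arms was called for any member under any alternative, and the 6 liver calls for sex held under every alternative run, each mouse left out included. Some differences between arms turned sign: Hp in gonadal fat from -0.06 to 0.21 (limma-voom) and 0.0599 (without the libraries in doubt), Hp in heart from -0.79 to 0.36 (limma-voom), Hp in lung from -0.285 to 0.0491 (without the libraries in doubt), Hp in subscapular fat from 0.02 to -0.11 (limma-voom) and -0.0131 (no filter), and Orm1 in liver from -0.007 to 0.0551 (sex left out). For sex, Orm1 in gonadal fat turned from -0.09 to 0.0112 and Hp in lung from 0.35 to -0.0257 without the libraries in doubt. The interaction for Orm1 in skin turned from -0.01 to 0.0245 with RLE scaling. The cause was not tested.

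Members called for sex in gonadal fat numbered 1, and 2 with DESeq2, 3 with no filter and 2 without the libraries in doubt, where Hp had an adjusted p of 0.029 with DESeq2 and 0.0366 without those libraries. With no filter, more low-count genes are tested, and 4 members were called in kidney (main 1), 2 in skin (main 0) and 5 in subscapular fat (main 2). Over all genes, treatment calls were 2 in bone marrow (main 1) and 2 in kidney (main 0) with DESeq2 and 1 in liver (main 0) with no filter. Sex calls with DESeq2 were 209 in bone marrow (main 93), 55 in heart (main 21), 60 in lung (main 18) and 108 in skin (main 31), 183 in skin with no filter, and 62 in heart and 62 in skin without the libraries in doubt.

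Leaving out each mouse in turn gave 1 to 3 members called for sex in gonadal fat, with 6 mice (3, 18, 23, 37, 58 and 62) each adding Saa3 or Hp or both, and 0 to 1 in kidney. Over all genes it gave 865 to 2138 calls for sex in subscapular fat, the fewest without control mouse 68, and 0 to 1 for treatment in liver, the 1 without aPAPPA mouse 9. Ranges that cross 0 were -0.19 to 0.18 for treatment on Hp in gonadal fat, -0.0944 to 0.0463 for Orm1 in liver, -0.35 to 0.14 for Hp and -0.0801 to 0.19 for Orm1 in subscapular fat, and -0.29 to 0.0209 for sex on Orm1 in gonadal fat.

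With TMM factors the liver level minus that in gonadal fat was 4.71 for Saa2 (main 6.27) and -2.15 for Saa3 (main -3.37). The tissues of 1 mouse are paired, and with the mouse as replicate block 14 neighbouring tissue pairs differed, as without it (14), and 0 genes were called for treatment over all tissues. Counts of correlations past the threshold moved most. In liver 21 pooled pairs became 0 in females, 1 in males and 2 in residuals of sex and arm. In gonadal fat 7 became 0 in females, 0 in males, 0 in residuals and 4 without the 2 farthest mice. Between liver and other tissues 15 became 0, 0 and 0, and 9 without the 2 farthest mice. With marker lists 14 became 7 within females. Depth limits Saa1, Saa2 and Saa3 outside their main tissues, where many libraries have no count.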
